A study of Mus musculus with 16 samples.

Results

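The comparison set the 4 libraries labelled Irf1-deleted (genotype IRF1deltaXCR1) against the 4 labelled Ikbkb-deleted (genotype IKKbdeltaXCR1), chosen by their genotype labels out of 16 mouse RNA-seq libraries. The other 8 libraries were 4 Irf1 floxed controls (IRF1FF) and 4 Ikbkb floxed controls (IKKbFF), and they show how the Irf1 and Ikbkb libraries differed where no gene was deleted. All 16 came from tumours of YUMM1.7, a transplantable mouse melanoma line, grown to 200 to 350 mm3 in female mice and digested with collagenase, and were made from cells sorted as type 1 conventional dendritic cells (cDC1s). The deletions are named after XCR1, a chemokine receptor that marks cDC1s. The Cre line, the floxed exons and the age of the mice are not given in the sources used here. No Irf1 mice are mentioned in the growth notes, and the Irf1 groups rest on the genotype label alone. The 8 Irf1 libraries and the 8 Ikbkb libraries form separate sets, and in any comparison across them the genotype and the set cannot be told apart. No label ties a replicate to its own animal, and p-values therefore describe the spread among these libraries, which may be technical.

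Ikbkb encodes IKK-beta, the kinase that marks the inhibitor I-kappa-B for destruction and so frees NF-kB to enter the nucleus and switch on inflammatory genes. Irf1 encodes interferon regulatory factor 1, a transcription factor induced by interferon-gamma and by NF-kB that drives antigen presentation and interferon response genes. In tumours cDC1s take up dead cells, cross-present their antigens to CD8 T cells and release IL-12 and chemokines that draw in and support T cells. The series title places NF-kB and IRF1 on a single axis in cDC1s, and setting both deletions side by side asks which genes separate them.

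Between the deleted groups 1376 of 16040 genes tested (8.58%) passed an edgeR Benjamini-Hochberg adjusted p of 0.05 and are termed called. In the Irf1-deleted libraries 808 genes (5.04%) were higher, with a median log2 fold change of 1.32, and 568 (3.54%) were lower, with a median of -0.86. Among 31 gene lists, collagens had the most called increases (13 of 18 genes) and the list of dissociation stress and immediate-early genes the most called decreases (11 of 26). Most of these differences were also present between the floxed controls: 1369 of the 1376 genes (99.5%) had the same sign there, and 960 were called in both comparisons. When the control difference was taken out, 0 genes were called.

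**Figure D1:**
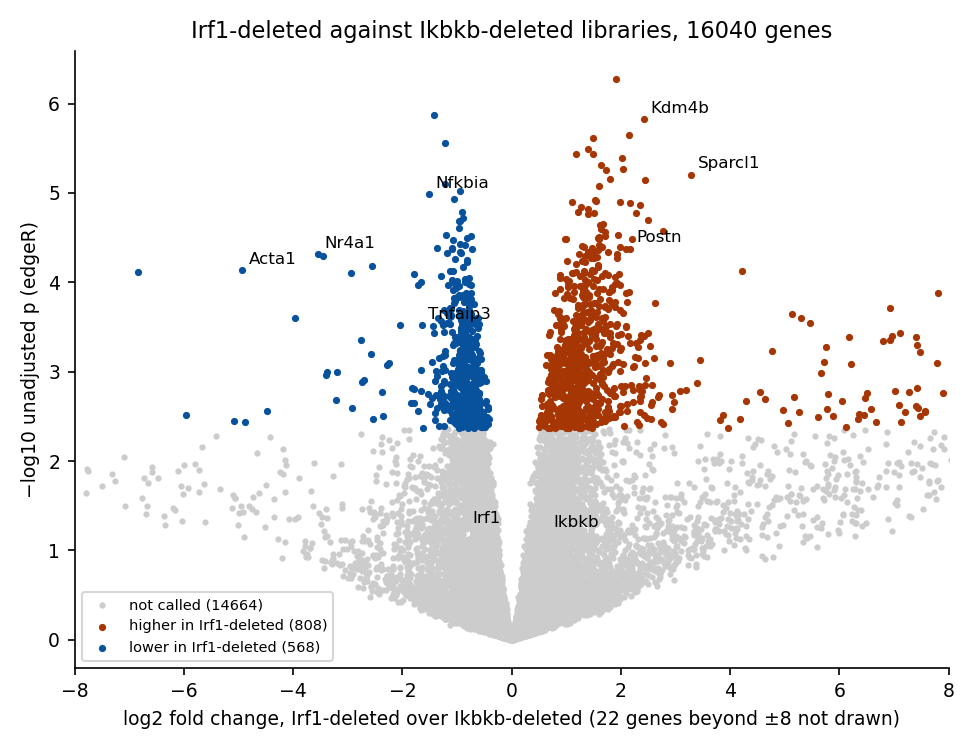
Each point is 1 of the 16040 genes tested, with the log2 fold change of Irf1-deleted over Ikbkb-deleted on the x axis and -log10 of the unadjusted edgeR p on the y axis. The 808 genes called higher (right) and 568 called lower (left) are coloured, Irf1 and Ikbkb lie among the uncalled genes, and 22 genes beyond the x axis are not drawn.

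The libraries of the deleted groups held 19266660 to 27433818 counts, and some stood apart from their group. Levels are given as CPM, counts scaled to library size with TMM factors, always in the order of replicates 1 to 4. The 16 cDC1 markers tested summed to 9608, 2735, 1888 and 1558 CPM in the Ikbkb-deleted and 4136, 935, 1913 and 2064 CPM in the Irf1-deleted libraries, so replicate 1 was the highest in each group. None of these markers was at 0 in all 8 libraries and 0 were called, although all 16 had a negative log2 fold change. Xcr1 read 318, 66, 53.6 and 28.2 CPM in the Ikbkb-deleted and 196, 14.7, 34.4 and 44 CPM in the Irf1-deleted libraries, and Clec9a, the receptor by which cDC1s sense dead cells, read 50.6, 11.7, 10.7 and 8.42 CPM in the Ikbkb-deleted and 14.2, 1.78, 8.64 and 13 CPM in the Irf1-deleted libraries. In bulk RNA, fewer cells of a type and less RNA per cell cannot be told apart. The number of calls rested on single libraries: it was 110 without Irf1-deleted replicate 3, 463 without Irf1-deleted replicate 2 and 656 when the library labelled Irf1-deleted replicate 1 was left out. It was 458, 602 and 894 without Ikbkb-deleted replicates 2, 3 and 1. Of the 68 called genes named here, 16 kept their call without each of the 8 libraries in turn, and for the others the libraries that ended the call are named with the values they left. The groups did not overlap for 2868 genes (17.9%), 1447 higher (9.02%) and 1421 lower (8.86%), and 1201 called genes were among them. Called higher genes had longer transcripts (median 4837.5 nt, longest transcript per gene) than all genes tested (3069 nt) and called lower genes shorter ones (2448.5 nt), and the part of length in the calls was not tested.

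The targeted genes did not pass the test between the deleted groups. Irf1 (ENSMUSG00000018899, mm10 chromosome 11, 53770014 to 53778374, plus strand) read 343, 384, 228 and 225 CPM in the Ikbkb-deleted and 299, 123, 145 and 98.6 CPM in the Irf1-deleted libraries (edgeR log2 fold change -0.83 ± 0.40 SE, adjusted p = 0.214). The library labelled Irf1-deleted replicate 1 lay above every Irf1 control, which read 141, 234, 152 and 268 CPM, and the other 3 lay below every Ikbkb-deleted library. Without it the log2 fold change of Irf1 was -1.27 (edgeR adjusted p = 0.0776). The Ikbkb controls read 392, 271, 892 and 296 CPM, and between the control groups Irf1 also leaned lower (edgeR log2 fold change -1.22 ± 0.41 SE, adjusted p = 0.0620). Ikbkb (ENSMUSG00000031537, mm10 chromosome 8, 22659212 to 22706589, minus strand) read 46.3, 28.5, 37.1 and 37.8 CPM in the Ikbkb-deleted and 77.5, 41.9, 70.8 and 44.3 CPM in the Irf1-deleted libraries, with 2 Irf1-deleted libraries inside the Ikbkb-deleted range (edgeR log2 fold change 0.65 ± 0.33 SE, adjusted p = 0.229). The Ikbkb controls read 45.1, 44.5, 121 and 48.6 CPM for Ikbkb. Ikbkb-deleted replicate 1, at 46.3 CPM, lay inside that range, and Ikbkb-deleted replicates 2, 3 and 4 lay below every Ikbkb control. Counts over a whole gene include exons outside a deleted part, so these levels check the labels only in part.

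Of 26 NF-kB pathway genes 3 were called lower and 0 higher in the Irf1-deleted libraries, and 11 had a positive log2 fold change. The shares over all genes tested were 3.54% lower and 5.04% higher. Nfkbia, which encodes the inhibitor that IKK-beta marks for destruction (ENSMUSG00000021025, mm10 chromosome 12, 55489410 to 55492647, minus strand), read 910.1, 824, 741 and 630.2 CPM in the Ikbkb-deleted and 221, 265, 315 and 285 CPM in the Irf1-deleted libraries. Every Irf1-deleted library lay below every Ikbkb-deleted one, 2.86 times lower in all (edgeR log2 fold change -1.52 ± 0.24 SE, adjusted p = 0.00795). Nfkbiz, an atypical nuclear inhibitor of the same family (ENSMUSG00000035356, mm10 chromosome 16, 55811375 to 55838899, minus strand), read 114, 156, 175 and 79.4 CPM in the Ikbkb-deleted and 45.1, 40.6, 42.6 and 22.5 CPM in the Irf1-deleted libraries, again without overlap (edgeR log2 fold change -1.80 ± 0.34 SE, adjusted p = 0.0112). The calls of both held without each of the 8 libraries in turn. Tnfaip3, which encodes the ubiquitin-editing enzyme A20 that shuts off IKK signalling (ENSMUSG00000019850, mm10 chromosome 10, 19000910 to 19015657, minus strand), read 191, 157, 208 and 81.5 CPM in the Ikbkb-deleted and 57.2, 48.7, 58.3 and 39.7 CPM in the Irf1-deleted libraries without overlap (edgeR log2 fold change -1.64 ± 0.35 SE, adjusted p = 0.0156). The Tnfaip3 call was lost without Irf1-deleted replicate 3 (log2 -1.71, adjusted p = 0.0586). As background, all 3 called genes encode proteins known to restrain NF-kB, while other inhibitors in the list, its kinases, adaptors and subunits were not called. The list had a median log2 fold change of -0.34 against 0.01 over all genes tested. Between the controls the list likewise had 3 lower and 0 higher calls, with a median of -0.41.

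The proximal promoters of Nfkbia and Cxcl1, a neutrophil-attracting chemokine gene described next, are shown because they hold matches to the NF-kB consensus motif, the element through which IKK-beta signalling is known to act. The 250 bases before the RefSeq start are printed 5′ to 3′ on the gene's strand (build GRCm38.p6), with motif matches in capitals. The Nfkbia window is chr12:55492648-55492897 (minus) and the Cxcl1 window chr5:90890995-90891244 (plus). RefSeq and GENCODE place some starts differently, and the Cxcl1 window ends just inside the GENCODE gene. Both genes were chosen after their values were seen.
Nfkbia: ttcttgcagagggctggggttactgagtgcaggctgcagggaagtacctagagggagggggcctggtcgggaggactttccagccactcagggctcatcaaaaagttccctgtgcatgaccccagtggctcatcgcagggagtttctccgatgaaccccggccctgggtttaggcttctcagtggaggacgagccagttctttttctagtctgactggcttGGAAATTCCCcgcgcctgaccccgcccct
Cxcl1: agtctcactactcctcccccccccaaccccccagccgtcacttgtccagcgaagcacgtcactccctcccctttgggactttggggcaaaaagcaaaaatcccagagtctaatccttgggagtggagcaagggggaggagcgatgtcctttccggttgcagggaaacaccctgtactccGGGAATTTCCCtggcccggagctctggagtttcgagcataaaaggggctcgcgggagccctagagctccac
The match in Nfkbia begins 29 bases before the start, and 2 overlapping matches in Cxcl1 begin 71 and 70 bases before it. RefSeq windows were matched by symbol for 11213 of the 16040 genes. Of 28 named genes that were lower, 22 had a window and 5 held the motif (Nfkbia, Tnfaip3, Cxcl1, Ccrl2 and Egr2), and of 40 named genes that were higher, 28 had a window and 3 held it. Over all calls the motif was in 8.01% of the windows of lower genes and 10.2% of those of higher genes, beside 8.91% for all genes tested. The Tnfaip3 window lies almost wholly inside the GENCODE gene and is not printed. The interferon-stimulated response element, the site of IRF proteins, was in 2.61% of the windows of lower genes, 2.64% of those of higher genes and 2.87% of all. The cyclic AMP response element (TGACGTCA) was in 2.79%, 1.8% and 2.38%, and the CArG box, the site of serum response factor, in 2.98%, 1.8% and 1.19%. All motifs were searched on both strands, and a match describes letters in the window, not a measured site.

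Inflammatory chemokine and cytokine genes that NF-kB is known to induce were among the largest decreases. Cxcl1 (ENSMUSG00000029380, mm10 chromosome 5, 90891241 to 90893115, plus strand) read 77.2, 63.8, 237 and 26.1 CPM in the Ikbkb-deleted and 6.96, 13.8, 8.54 and 7.51 CPM in the Irf1-deleted libraries. The groups did not overlap (edgeR log2 fold change -3.45 ± 0.62 SE, adjusted p = 0.00976), and the call held without each of the 8 libraries in turn. Ccl4, a chemokine that draws in T and NK cells (ENSMUSG00000018930, mm10 chromosome 11, 83662584 to 83664683, plus strand), read 187, 68, 66.6 and 41.8 CPM in the Ikbkb-deleted and 12.1, 4.51, 3.8 and 2.83 CPM in the Irf1-deleted libraries, also without overlap (edgeR log2 fold change -3.97 ± 0.84 SE, adjusted p = 0.0150). The Ccl4 call was lost without Irf1-deleted replicate 3 (log2 -3.81, adjusted p = 0.0667). Il1b, the gene of interleukin-1 beta, read 1176, 384, 393 and 267 CPM in the Ikbkb-deleted and 98.3, 28.6, 48.5 and 34.2 CPM in the Irf1-deleted libraries, with Ikbkb-deleted replicate 1 far above the rest (edgeR log2 fold change -3.41 ± 0.85 SE, adjusted p = 0.0256). The Il1b call was lost without Ikbkb-deleted replicates 1 or 2 or Irf1-deleted replicates 2 or 3 (log2 -3.53 to -2.72, adjusted p 0.0513 to 0.0976). The list counts that follow stand beside shares of 3.54% lower and 5.04% higher over all genes tested. Of 35 NF-kB target genes 5 were called lower and 1 higher, the macrophage growth factor gene Csf1 (edgeR log2 fold change 0.92 ± 0.26 SE, adjusted p = 0.0386), which was named after its value was seen. No member was called higher without Ikbkb-deleted replicates 1, 2 or 3, Irf1-deleted replicates 2 or 3 or the library labelled Irf1-deleted replicate 1. The list median was -1.20, and between the controls 5 were lower and 1 higher with a median of -1.31. The lower calls numbered 1 without Irf1-deleted replicate 3, 2 without Ikbkb-deleted replicate 2, and 3 without Irf1-deleted replicates 2 or 4 or the library labelled Irf1-deleted replicate 1. Of 25 chemokine genes 4 were lower and 0 higher (median -0.42), namely Ccl4, Cxcl1, Ccl17 and Ccl2, while between the controls 4 were higher and 2 lower. These lower calls numbered 2 without replicate 2 of either group, without the library labelled Irf1-deleted replicate 1 or without Irf1-deleted replicate 4, and 1 without Irf1-deleted replicate 3. Ccl17, a ligand of CCR4 made by activated dendritic cells, ranged over 19 to 48.6 CPM in the Ikbkb-deleted and 3.95 to 10.6 CPM in the Irf1-deleted libraries (edgeR log2 fold change -1.83 ± 0.48 SE, adjusted p = 0.0306). The Ccl17 call was lost without Ikbkb-deleted replicates 1 or 2 or Irf1-deleted replicates 2, 3 or 4 or the library labelled Irf1-deleted replicate 1 (log2 -1.99 to -1.44, adjusted p 0.0512 to 0.0881). Ccl2, a monocyte attractant, overlapped at 103 to 287 CPM in the Ikbkb-deleted and 72.5 to 121 CPM in the Irf1-deleted libraries (edgeR log2 fold change -1.04 ± 0.28 SE, adjusted p = 0.0363). The Ccl2 call was lost without Ikbkb-deleted replicates 2, 3 or 4 or Irf1-deleted replicates 2, 3 or 4 or the library labelled Irf1-deleted replicate 1 (log2 -1.17 to -0.82, adjusted p 0.0598 to 0.113).

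Immediate-early genes are transcribed soon after a stimulus and are also known to rise when tissue is digested into single cells. Over all genes tested 3.54% were called lower and 5.04% higher. Of 26 genes of dissociation stress and the immediate-early response, 11 were called lower and 0 higher, the most decreases of the 31 lists, with a median log2 fold change of -0.81. They summed to 10996, 9565, 6819.6 and 7919 CPM in the Ikbkb-deleted and 4847, 5493, 4843 and 4074 CPM in the Irf1-deleted libraries, with no overlap. The lower calls numbered 3 without Irf1-deleted replicate 3, 5 without Ikbkb-deleted replicate 1 or the library labelled Irf1-deleted replicate 1, and 6 without replicate 2 of either group. Nr4a1, an orphan nuclear receptor and early response gene (ENSMUSG00000023034, mm10 chromosome 15, 101254269 to 101274795, plus strand), read 639, 354, 378 and 222 CPM in the Ikbkb-deleted and 31.6, 33.4, 59.5 and 12.2 CPM in the Irf1-deleted libraries. Its highest Irf1-deleted library lay far below its lowest Ikbkb-deleted one, 11.7 times lower in all (edgeR log2 fold change -3.54 ± 0.64 SE, adjusted p = 0.00949), and the call held without each of the 8 libraries in turn. Egr2, a zinc-finger factor of the same response, read 50, 35.7, 26.9 and 28.7 CPM in the Ikbkb-deleted and 5.13, 8.35, 5.48 and 5.01 CPM in the Irf1-deleted libraries (edgeR log2 fold change -2.56 ± 0.47 SE, adjusted p = 0.0109). The Egr2 call was lost without Irf1-deleted replicate 3 (log2 -2.52, adjusted p = 0.05). Atf3, a stress-induced transcription factor, ranged over 108 to 365 CPM in the Ikbkb-deleted and 20 to 51.9 CPM in the Irf1-deleted libraries (edgeR log2 fold change -2.58 ± 0.61 SE, adjusted p = 0.0211). The Atf3 call was lost without Ikbkb-deleted replicate 1 or Irf1-deleted replicates 2 or 3 (log2 -2.59 to -2.11, adjusted p 0.0533 to 0.0796). Csrnp1, a nuclear protein gene induced by AXIN1, ranged over 65.8 to 135 CPM in the Ikbkb-deleted and 10 to 16.4 CPM in the Irf1-deleted libraries (edgeR log2 fold change -2.94 ± 0.55 SE, adjusted p = 0.0112). The Csrnp1 call was lost without Irf1-deleted replicate 3 (log2 -2.87, adjusted p = 0.0541). Csrnp1 is no member of the list and was named for the size of its fold change. Btg2, an antiproliferative gene, ranged over 269.8 to 1049.9 CPM in the Ikbkb-deleted and 79.2 to 139 CPM in the Irf1-deleted libraries (edgeR log2 fold change -2.29 ± 0.55 SE, adjusted p = 0.0232). The Btg2 call was lost without Ikbkb-deleted replicates 1 or 2 or Irf1-deleted replicates 2 or 3 or the library labelled Irf1-deleted replicate 1 (log2 -2.41 to -1.75, adjusted p 0.0508 to 0.0751). Between the controls 14 of the 26 were lower and 0 higher, with a median of -0.95. The part of tissue digestion in these values was not tested.

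Dendritic cell activation genes leaned the same way with few calls. Cd83, a surface marker of mature dendritic cells (ENSMUSG00000015396, mm10 chromosome 13, 43784775 to 43803132, plus strand), read 2223, 837, 485 and 367 CPM in the Ikbkb-deleted and 202, 42, 79.5 and 103 CPM in the Irf1-deleted libraries, without overlap (edgeR log2 fold change -3.20 ± 0.79 SE, adjusted p = 0.0249). The Cd83 call was lost without Ikbkb-deleted replicates 1 or 2 or Irf1-deleted replicates 2 or 3 (log2 -3.24 to -2.39, adjusted p 0.0539 to 0.0980). Ikbkb-deleted replicate 1, the highest library for Cd83, was also the highest for the summed cDC1 markers, and the part of the cDC1 share in these values was not tested. Of 26 genes of dendritic cell maturation and migration 25 had a negative log2 fold change, with a list median of -1.28. Of the 26 genes 3 were called, all lower (Cd83, Ccl17 and Tmem123), beside 3.54% of all genes tested. None was called without Ikbkb-deleted replicates 1 or 2 or Irf1-deleted replicates 2 or 3, and 1 was without Irf1-deleted replicate 4. Between the controls 5 were lower and 0 higher (median -1.41). Gpr183, Ccrl2 and Slc27a3 are no members of the list and were named for the size of their fold change. Gpr183, the oxysterol receptor that positions dendritic cells in lymphoid tissue, ranged over 18.6 to 129 CPM in the Ikbkb-deleted and 5.45 to 12.2 CPM in the Irf1-deleted libraries (edgeR log2 fold change -2.74 ± 0.70 SE, adjusted p = 0.0280). The Gpr183 call was lost without Ikbkb-deleted replicates 1 or 2 or Irf1-deleted replicates 2, 3 or 4 or the library labelled Irf1-deleted replicate 1 (log2 -2.89 to -2.09, adjusted p 0.0550 to 0.0870). Ccrl2, a non-signalling receptor that binds the attractant chemerin, ranged over 45.8 to 144 CPM in the Ikbkb-deleted and 8.74 to 16.1 CPM in the Irf1-deleted libraries (edgeR log2 fold change -2.70 ± 0.69 SE, adjusted p = 0.0274). The Ccrl2 call was lost without Ikbkb-deleted replicates 2 or 3 or Irf1-deleted replicates 2 or 3 or the library labelled Irf1-deleted replicate 1 (log2 -2.78 to -2.35, adjusted p 0.0603 to 0.0919). Slc27a3, a fatty acid transport and acyl-CoA synthetase gene, ranged over 27.7 to 87.1 CPM in the Ikbkb-deleted and 1.4 to 11.9 CPM in the Irf1-deleted libraries (edgeR log2 fold change -3.21 ± 0.87 SE, adjusted p = 0.0353). The Slc27a3 call was lost without Ikbkb-deleted replicates 1, 2 or 3 or Irf1-deleted replicates 2, 3 or 4 (log2 -3.34 to -2.84, adjusted p 0.0654 to 0.103).

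Interferon response and antigen presentation genes, the known programme of IRF1, held almost no calls between the deletions. Over all genes tested 5.04% were called higher and 3.54% lower, so few calls do not by themselves set these lists apart. Of 36 type I interferon-stimulated genes 1 was higher and 0 were lower, and 0 were called of 30 interferon-gamma-inducible genes, of 9 IRF family genes, of 22 genes of MHC class I and peptide loading and of 12 MHC class II genes. The list medians, in that order, were -0.07, -0.33, 0.04, -0.56 and -1.06. Ddx58, the gene of the viral RNA sensor RIG-I (ENSMUSG00000040296, mm10 chromosome 4, 40203773 to 40239828, minus strand), was the called gene and read 21.6, 29.8, 24.7 and 21.7 CPM in the Ikbkb-deleted and 56.7, 63.9, 47.3 and 32.8 CPM in the Irf1-deleted libraries, without overlap (edgeR log2 fold change 1.04 ± 0.24 SE, adjusted p = 0.0186). The Ddx58 call was lost without Irf1-deleted replicates 2 or 3 (log2 0.90 to 1.07, adjusted p 0.0617 to 0.0626). It was called higher between the controls as well (edgeR log2 fold change 0.91 ± 0.24 SE, adjusted p = 0.0229). B2m, the light chain of MHC class I, read 1952, 3359, 1807 and 2067 CPM in the Ikbkb-deleted and 2983, 2274, 1576 and 1405 CPM in the Irf1-deleted libraries, and the groups overlapped widely (edgeR log2 fold change -0.16 ± 0.27 SE, adjusted p = 0.778). Cd74, the invariant chain of MHC class II, read 17627, 6741, 5001 and 3580.4 CPM in the Ikbkb-deleted and 8862, 2412, 4599.5 and 4570.1 CPM in the Irf1-deleted libraries (edgeR log2 fold change -0.69 ± 0.65 SE, adjusted p = 0.562), and its log2 fold change was 0.01 without Ikbkb-deleted replicate 1. Irf8, the factor that specifies cDC1s, read 2268, 744, 379 and 394 CPM in the Ikbkb-deleted and 886, 178, 357 and 437 CPM in the Irf1-deleted libraries (edgeR log2 fold change -1.03 ± 0.73 SE, adjusted p = 0.420). For Cd74 and Irf8, as for the cDC1 marker sum to which Irf8 itself contributes, replicate 1 was the highest of each group, and differences of these sizes were not detectable at this spread.

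**Figure D2:**
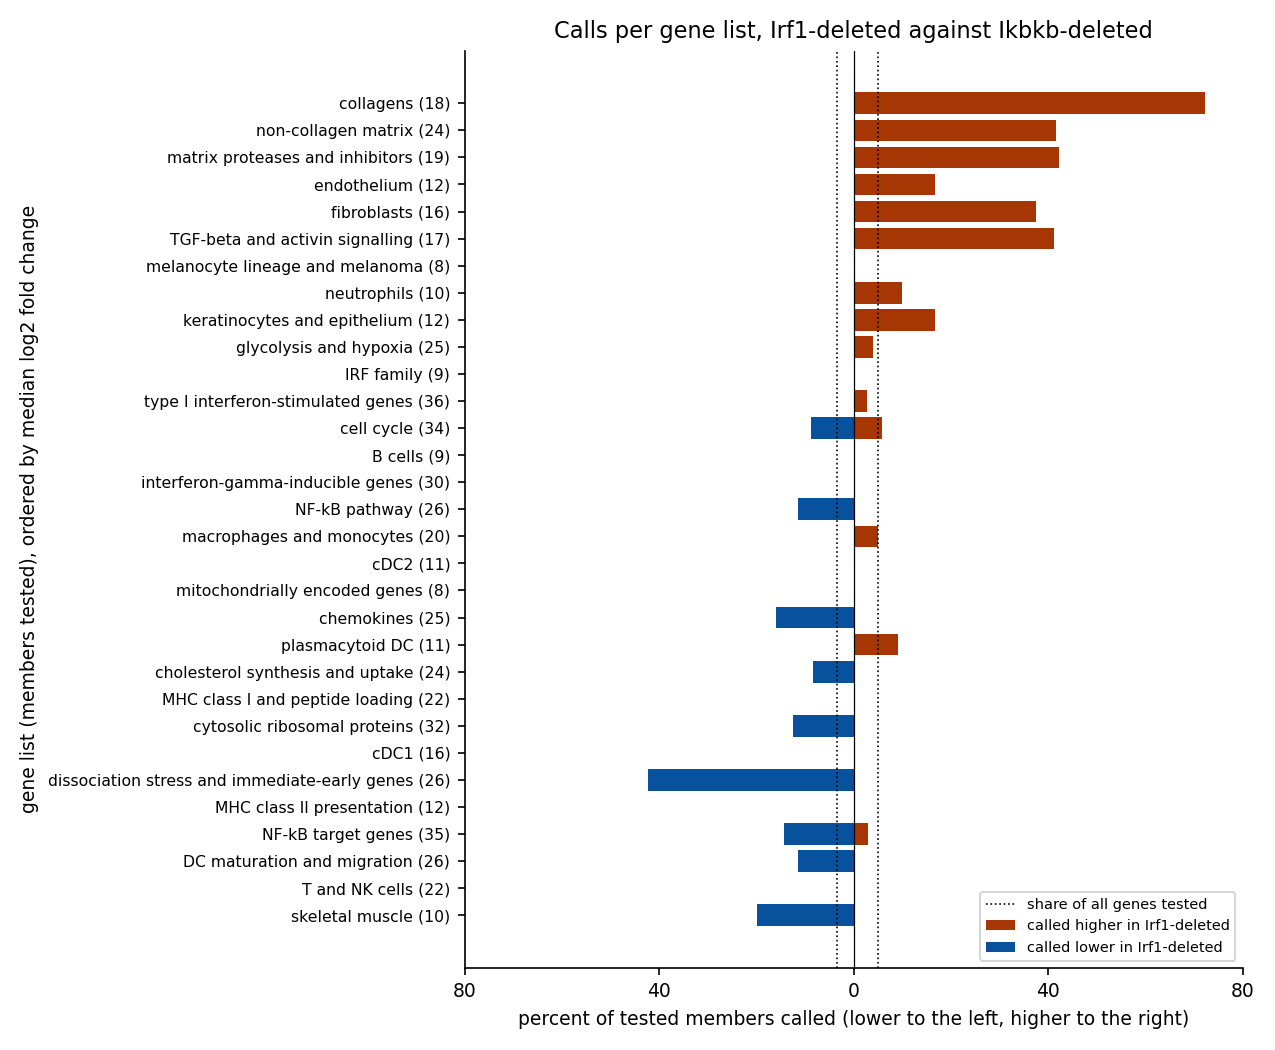
Bars give the percentage of tested members of each gene list called lower (left) and higher (right) in Irf1-deleted against Ikbkb-deleted libraries, with the number tested in brackets and dotted lines at the shares of all genes tested (3.54% lower, 5.04% higher). Collagens lead on the right with 13 of 18 and immediate-early genes on the left with 11 of 26.

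Collagen genes gave the broadest increase of the 31 lists, beside a share of 5.04% called higher over all genes tested. Of 18 collagen genes 13 were called higher and 0 lower in the Irf1-deleted libraries, all 18 had a positive log2 fold change, and the median was 1.83. They summed to 4792, 5162, 5942 and 10209 CPM in the Ikbkb-deleted and 17435, 21704, 23909.5 and 10558 CPM in the Irf1-deleted libraries. The ranges did not overlap, but Irf1-deleted replicate 4 lay close to Ikbkb-deleted replicate 4. The calls numbered 2 without Irf1-deleted replicate 3, 6 without replicate 2 of either group and 8 without Ikbkb-deleted replicate 1. Col15a1, a basement membrane collagen (ENSMUSG00000028339, mm10 chromosome 4, 47208161 to 47313167, plus strand), read 4.99, 4.59, 13.4 and 7.23 CPM in the Ikbkb-deleted and 22.7, 58.4, 50.8 and 31.2 CPM in the Irf1-deleted libraries, 5.4-fold higher (edgeR log2 fold change 2.43 ± 0.37 SE, adjusted p = 0.00727), and the call held without each of the 8 libraries in turn. Col4a1 and Col4a2 encode the paired chains of the collagen IV network of basement membranes. Col4a2 read 13.9, 23.1, 78.8 and 67.7 CPM in the Ikbkb-deleted and 240.1, 317, 351 and 85.2 CPM in the Irf1-deleted libraries (edgeR log2 fold change 2.44 ± 0.59 SE, adjusted p = 0.0229). The Col4a2 call was lost without Ikbkb-deleted replicate 2 or Irf1-deleted replicates 2 or 3 (log2 2.21 to 2.30, adjusted p 0.0608 to 0.0847). Col4a1 read 51.4, 48.6, 142 and 135 CPM in the Ikbkb-deleted and 527, 719.9, 644 and 115 CPM in the Irf1-deleted libraries, with Irf1-deleted replicate 4 inside the Ikbkb-deleted range (edgeR log2 fold change 2.42 ± 0.54 SE, adjusted p = 0.0173). The Col4a1 call was lost without Ikbkb-deleted replicate 2 or Irf1-deleted replicates 2 or 3 (log2 2.19 to 2.27, adjusted p 0.0505 to 0.0666). Col3a1, the fibrillar collagen of loose connective tissue, read 1598, 1465, 1602 and 2955 CPM in the Ikbkb-deleted and 5812, 7737, 7094 and 3447 CPM in the Irf1-deleted libraries (edgeR log2 fold change 1.66 ± 0.35 SE, adjusted p = 0.0150). The Col3a1 call was lost without Irf1-deleted replicate 3 (log2 1.57, adjusted p = 0.0616). Between the controls 17 of 18 collagens were higher and 0 lower, with a median of 2.06.

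**Figure D3:**
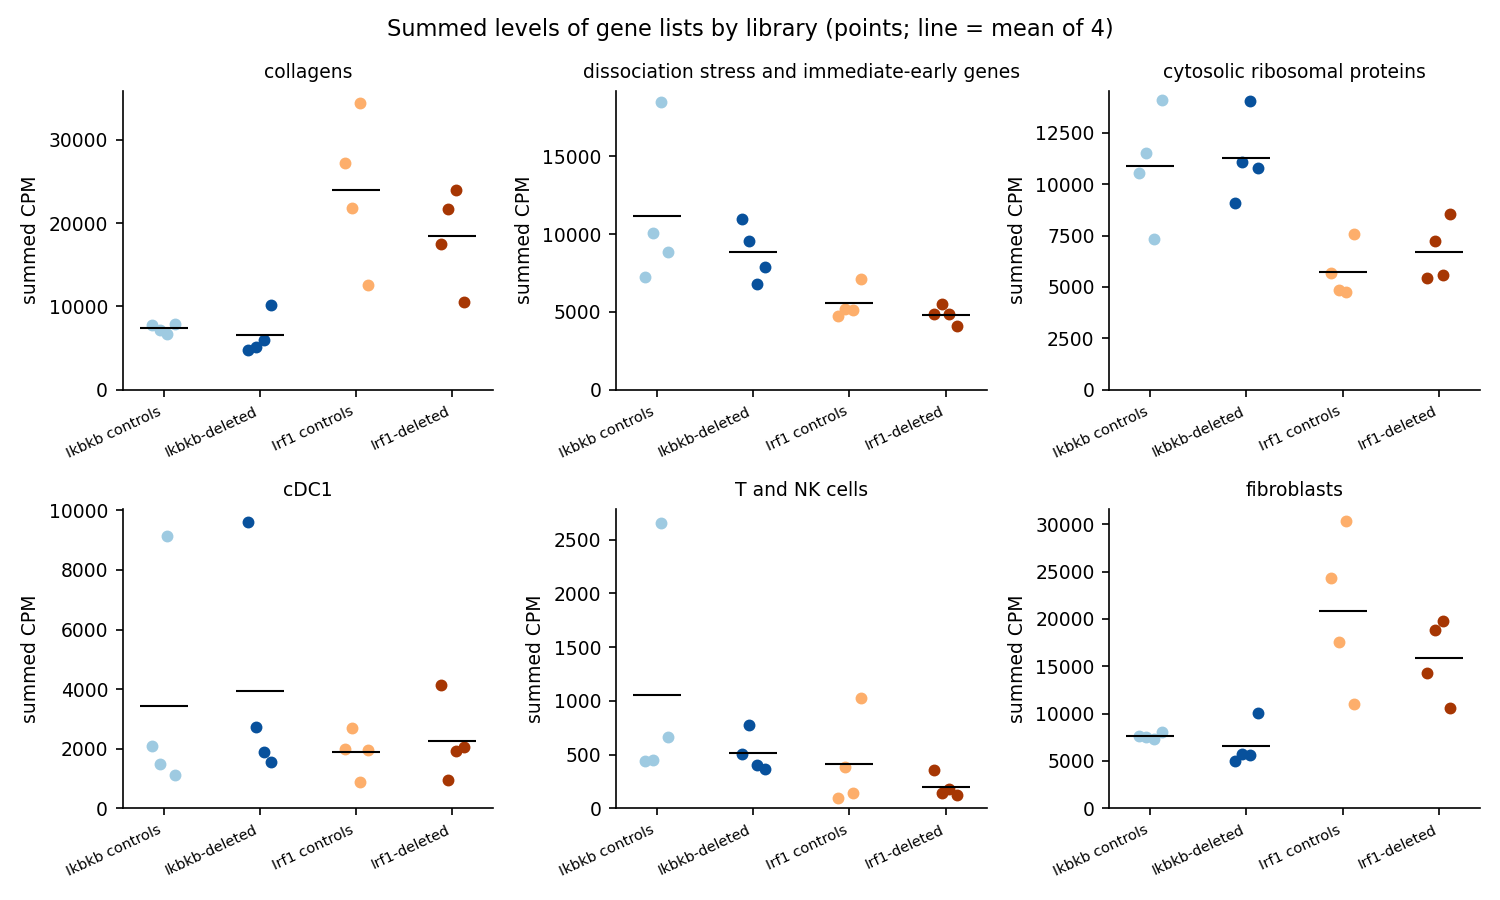
Each point is 1 library, the y axis is the summed CPM of a gene list and the line is the mean of 4 libraries. In the deleted groups the Irf1 libraries lay above the Ikbkb libraries for collagens and fibroblast markers and below them for stress and ribosomal protein genes, while cDC1 marker sums overlapped.

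Of 24 non-collagen matrix genes 10 were called higher, 0 lower and 14 not (median 1.28), against 11 and 0 between the controls (median 1.17). The share called higher between the deleted groups was 5.04% over all genes tested. Postn, the gene of periostin, a matricellular protein of activated fibroblasts (ENSMUSG00000027750, mm10 chromosome 3, 54361109 to 54391037, plus strand), read 384, 321, 404 and 765 CPM in the Ikbkb-deleted and 1623, 2785, 2781 and 1182 CPM in the Irf1-deleted libraries, 4.47-fold higher without overlap (edgeR log2 fold change 2.16 ± 0.38 SE, adjusted p = 0.00949). Sparcl1, Cpxm1, Cilp and Lama5 are no members of the list and were named for the size of their fold change. Sparcl1, a secreted matrix protein related to SPARC (ENSMUSG00000029309, mm10 chromosome 5, 104079111 to 104113733, minus strand), read 43.4, 55.9, 114 and 98.4 CPM in the Ikbkb-deleted and 569.5, 1137, 1098 and 239 CPM in the Irf1-deleted libraries, 9.77-fold higher without overlap (edgeR log2 fold change 3.29 ± 0.49 SE, adjusted p = 0.00717). The Postn and Sparcl1 calls held without each of the 8 libraries in turn. Fn1, the gene of fibronectin, read 244, 240.2, 618 and 710.1 CPM in the Ikbkb-deleted and 1588, 1406, 2379 and 423 CPM in the Irf1-deleted libraries, with Irf1-deleted replicate 4 inside the Ikbkb-deleted range (edgeR log2 fold change 1.68 ± 0.48 SE, adjusted p = 0.0441). The Fn1 call was lost without Ikbkb-deleted replicates 1, 2 or 3 or Irf1-deleted replicates 2 or 3 or the library labelled Irf1-deleted replicate 1 (log2 1.33 to 1.88, adjusted p 0.0692 to 0.166). Cpxm1, a secreted carboxypeptidase-like gene, ranged over 2.64 to 11 CPM in the Ikbkb-deleted and 38.9 to 88.9 CPM in the Irf1-deleted libraries (edgeR log2 fold change 3.44 ± 0.82 SE, adjusted p = 0.0224). The Cpxm1 call was lost without Ikbkb-deleted replicates 2 or 3 or Irf1-deleted replicates 2 or 3 (log2 3.24 to 3.53, adjusted p 0.0568 to 0.0768). Cilp, a cartilage matrix gene, ranged over 0.318 to 13.7 CPM in the Ikbkb-deleted and 35.5 to 74.4 CPM in the Irf1-deleted libraries (edgeR log2 fold change 2.98 ± 0.81 SE, adjusted p = 0.0358). The Cilp call was lost without Ikbkb-deleted replicates 1, 2 or 3 or Irf1-deleted replicates 2 or 3 or the library labelled Irf1-deleted replicate 1 (log2 2.59 to 3.27, adjusted p 0.0552 to 0.0980). Lama5, a laminin chain of basement membranes, ranged over 1.56 to 21.8 CPM in the Ikbkb-deleted and 38.4 to 74.3 CPM in the Irf1-deleted libraries (edgeR log2 fold change 2.57 ± 0.66 SE, adjusted p = 0.0293). The Lama5 call was lost without Ikbkb-deleted replicates 1 or 2 or Irf1-deleted replicates 2 or 3 or the library labelled Irf1-deleted replicate 1 (log2 2.20 to 2.52, adjusted p 0.0574 to 0.0918). Tnc, the gene of tenascin-C, was not called (edgeR log2 fold change 2.78 ± 0.90 SE, adjusted p = 0.0664). The calls of the list numbered 5 without replicate 2 of either group or Irf1-deleted replicate 3, and 6 without Ikbkb-deleted replicates 1 or 3 or the library labelled Irf1-deleted replicate 1.

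Most genes of enzymes that cut matrix, and of the TGF-beta pathway, which is known to induce matrix genes, leaned higher as well. Of 19 matrix proteases and inhibitors 8 were called higher and 0 lower (median 1.16), and 1 had a negative log2 fold change. Of 17 TGF-beta and activin signalling genes 7 were called higher and 0 lower (median 0.91). Of these 17 genes 13 had a positive and 4 a negative log2 fold change (lowest -0.65), and 1 was lower without overlap. Over all genes tested 5.04% were called higher and 3.54% lower. Between the controls 8 proteases and 6 TGF-beta genes were higher, and 0 of either lower. Mmp14, the membrane-bound collagenase MT1-MMP (ENSMUSG00000000957, mm10 chromosome 14, 54431612 to 54445364, plus strand), read 131, 90.2, 259 and 220.1 CPM in the Ikbkb-deleted and 539, 832, 895 and 382 CPM in the Irf1-deleted libraries, without overlap (edgeR log2 fold change 1.92 ± 0.35 SE, adjusted p = 0.00949). Tgfbr3, the TGF-beta co-receptor betaglycan (ENSMUSG00000029287, mm10 chromosome 5, 107106570 to 107289629, minus strand), read 10.9, 15, 21.2 and 27.1 CPM in the Ikbkb-deleted and 55.7, 91.8, 106 and 51.1 CPM in the Irf1-deleted libraries, without overlap (edgeR log2 fold change 2.04 ± 0.30 SE, adjusted p = 0.00686). Both calls held without each of the 8 libraries in turn. Smad3, the factor that carries the TGF-beta signal to the nucleus, read 16.2, 12.8, 17.6 and 16.9 CPM in the Ikbkb-deleted and 28.7, 40.2, 45.4 and 34.3 CPM in the Irf1-deleted libraries, also without overlap (edgeR log2 fold change 1.23 ± 0.28 SE, adjusted p = 0.0179). The Smad3 call was lost without Ikbkb-deleted replicate 2 or Irf1-deleted replicates 2 or 3 (log2 1.12 to 1.19, adjusted p 0.0503 to 0.0751). Ltbp2, a microfibril protein of the family that holds latent TGF-beta, overlapped at 10.8 to 38.7 CPM in the Ikbkb-deleted and 23.1 to 147 CPM in the Irf1-deleted libraries (edgeR log2 fold change 2.0 ± 0.55 SE, adjusted p = 0.0376). The Ltbp2 call was lost without Ikbkb-deleted replicates 1, 2 or 3 or Irf1-deleted replicates 2 or 3 or the library labelled Irf1-deleted replicate 1 (log2 1.44 to 2.06, adjusted p 0.0633 to 0.162). Mmp9, a gelatinase that neutrophils and macrophages also make, ranged over 141 to 301 CPM in the Ikbkb-deleted and 345 to 814 CPM in the Irf1-deleted libraries (edgeR log2 fold change 1.52 ± 0.36 SE, adjusted p = 0.0217). The Mmp9 call was lost without Ikbkb-deleted replicates 2 or 3 or Irf1-deleted replicates 2 or 3 (log2 1.33 to 1.51, adjusted p 0.0580 to 0.0830). Without Irf1-deleted replicate 3, 1 protease gene and 1 TGF-beta gene were called. Protease calls numbered 2 without replicate 2 of either group and 4 without Ikbkb-deleted replicates 1 or 3. TGF-beta calls numbered 1 without replicate 2 of either group, 2 without Ikbkb-deleted replicates 1 or 3 and 3 when the library labelled Irf1-deleted replicate 1 was left out.

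Most fibroblast markers moved with the matrix genes. Of 16 markers 13 had a positive and 3 a negative log2 fold change (lowest -1.14), and 1 was lower without overlap. The 16 markers summed to 4999, 5749, 5583 and 10061 CPM in the Ikbkb-deleted and 14288, 18865, 19791 and 10591 CPM in the Irf1-deleted libraries. Of the 16 markers 6 were called higher and 0 lower, beside 5.04% and 3.54% of all genes tested, and none was at 0 in all 8 libraries. Between the controls 7 were higher and 0 lower. The list shares Postn and Col3a1 with the matrix lists, but also holds Pdgfra, the receptor for platelet-derived growth factor on fibroblasts, which is no matrix gene. Pdgfra read 129, 111, 155 and 156 CPM in the Ikbkb-deleted and 257, 341, 412 and 296 CPM in the Irf1-deleted libraries, without overlap (edgeR log2 fold change 1.25 ± 0.27 SE, adjusted p = 0.0156). The Pdgfra call was lost without Ikbkb-deleted replicate 2 or Irf1-deleted replicate 3 (log2 1.12 to 1.16, adjusted p 0.0503 to 0.0667). The called markers numbered 1 without Irf1-deleted replicate 3, 2 without Ikbkb-deleted replicate 2 and 3 without Ikbkb-deleted replicates 1 or 3 or Irf1-deleted replicate 2. With the fibroblast marker level as a covariate edgeR called 0 of 16040 genes between the deleted groups, and 1296 had an unadjusted p under 0.05 beside 4077 without it. The marker sums of both groups did not overlap, so the covariate and the genotype cannot be told apart in full.

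Other named genes belong to none of the lists above. Kdm4b, a histone demethylase that acts on lysine 9 of histone H3 (ENSMUSG00000024201, mm10 chromosome 17, 56326062 to 56402870, plus strand), read 9.04, 11.7, 9.29 and 9.27 CPM in the Ikbkb-deleted and 58.4, 51.5, 64.8 and 36.1 CPM in the Irf1-deleted libraries, 5.36-fold higher (edgeR log2 fold change 2.42 ± 0.32 SE, adjusted p = 0.00652). Each group was tight and the gap between them wide. Fyco1, an adaptor that moves autophagosomes along microtubules (ENSMUSG00000025241, mm10 chromosome 9, 123789500 to 123851899, minus strand), read 4.83, 6.15, 5.78 and 1.59 CPM in the Ikbkb-deleted and 43.3, 19.7, 44.8 and 17.2 CPM in the Irf1-deleted libraries (edgeR log2 fold change 2.77 ± 0.47 SE, adjusted p = 0.00949). Adgrl1, an adhesion G protein-coupled receptor of the latrophilin family (ENSMUSG00000013033, mm10 chromosome 8, 83900105 to 83941954, plus strand), read 2.47, 3.83, 5.68 and 5.18 CPM in the Ikbkb-deleted and 17.4, 23.9, 38.2 and 17.4 CPM in the Irf1-deleted libraries (edgeR log2 fold change 2.5 ± 0.41 SE, adjusted p = 0.00869). Tcf4, a factor of plasmacytoid dendritic cells that other cells also express (ENSMUSG00000053477, mm10 chromosome 18, 69343356 to 69689079, plus strand), read 90.8, 85.6, 137 and 156 CPM in the Ikbkb-deleted and 281, 392, 457 and 239 CPM in the Irf1-deleted libraries (edgeR log2 fold change 1.54 ± 0.25 SE, adjusted p = 0.00795). It was the called member of 11 plasmacytoid dendritic cell markers, of which 1 was higher and 0 lower, with a median of -0.50. In none of these 4 genes did the groups overlap, and their calls held without each of the 8 libraries in turn. H19, an imprinted long noncoding RNA (ENSMUSG00000000031, mm10 chromosome 7, 142575529 to 142578143, minus strand), read 2.73, 8.72, 14.6 and 4.53 CPM in the Ikbkb-deleted and 17.4, 26.8, 47.4 and 86.2 CPM in the Irf1-deleted libraries (edgeR log2 fold change 2.54 ± 0.58 SE, adjusted p = 0.0190). The H19 call was lost without Ikbkb-deleted replicate 2 or Irf1-deleted replicate 3 (log2 2.51 to 2.59, adjusted p 0.0524 to 0.0666). Ice1, a subunit of the little elongation complex, ranged over 1.61 to 5.31 CPM in the Ikbkb-deleted and 11.3 to 30.2 CPM in the Irf1-deleted libraries (edgeR log2 fold change 2.61 ± 0.53 SE, adjusted p = 0.0134). The Ice1 call was lost without Irf1-deleted replicate 3 (log2 2.56, adjusted p = 0.0541). Nkd2, an inhibitor of Wnt signalling, ranged over 4.39 to 30.4 CPM in the Ikbkb-deleted and 41.2 to 100.4 CPM in the Irf1-deleted libraries (edgeR log2 fold change 2.46 ± 0.62 SE, adjusted p = 0.0266). The Nkd2 call was lost without Ikbkb-deleted replicates 1, 2 or 3 or Irf1-deleted replicates 2 or 3 (log2 2.12 to 2.61, adjusted p 0.0614 to 0.0799).

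**Figure D4:**
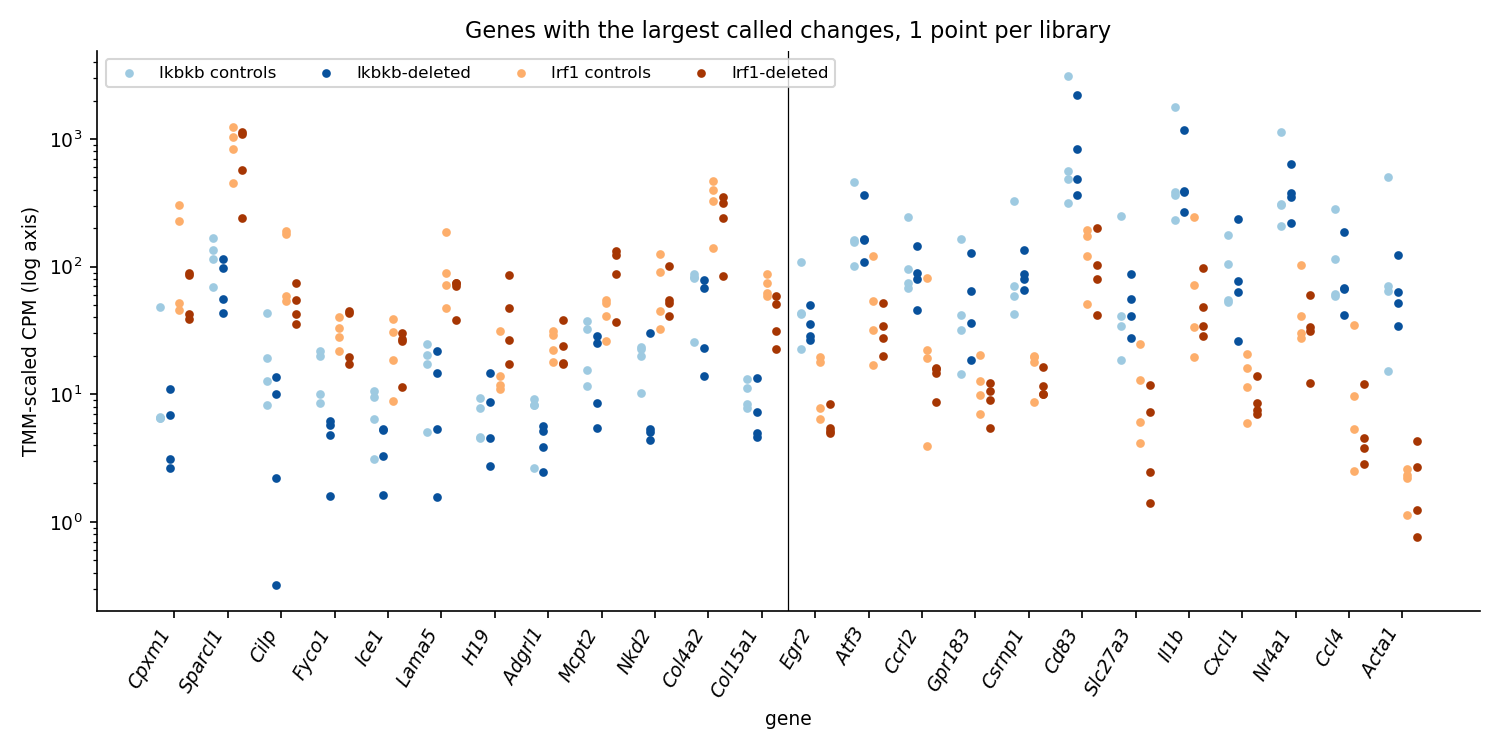
Each point is 1 library, with TMM-scaled CPM on a log y axis and the 12 genes with the largest called increases (left of the line) and decreases (right) in the Irf1-deleted libraries. For most genes the control groups sit apart in the same direction as the deleted groups, with Fyco1, H19 and Mcpt2 closer together in the controls.

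Growth and housekeeping lists were counted in the same way. Over all genes tested 5.04% were called higher and 3.54% lower, so a few calls in a list do not by themselves set it apart. Of 32 cytosolic ribosomal protein genes 4 were called lower and 0 higher, all 32 had a negative log2 fold change, and the median was -0.72. They summed to 9068, 11089, 14056 and 10795 CPM in the Ikbkb-deleted and 5429, 7223, 5604 and 8561 CPM in the Irf1-deleted libraries, without overlap. Of these genes 0 were called without Ikbkb-deleted replicates 2 or 3, Irf1-deleted replicates 2 or 3 or the library labelled Irf1-deleted replicate 1, 2 were called without Ikbkb-deleted replicate 4 and 11 without Irf1-deleted replicate 4. Between the controls 14 were lower and 0 higher (median -0.84). Many ribosomal protein genes have near-identical pseudogenes, so their counts are uncertain. Rps3, of the small subunit, ranged over 1399 to 2743 CPM in the Ikbkb-deleted and 681 to 1214 CPM in the Irf1-deleted libraries (edgeR log2 fold change -1.06 ± 0.29 SE, adjusted p = 0.0345). The Rps3 call was lost without Ikbkb-deleted replicates 2 or 3 or Irf1-deleted replicates 2 or 3 or the library labelled Irf1-deleted replicate 1 (log2 -1.10 to -0.81, adjusted p 0.0679 to 0.127). Of 24 genes of cholesterol synthesis and uptake 2 were lower and 0 higher (median -0.52). Insig1, the sterol sensor that holds back SREBP, ranged over 74.2 to 127 CPM in the Ikbkb-deleted and 20.5 to 54.2 CPM in the Irf1-deleted libraries (edgeR log2 fold change -1.26 ± 0.31 SE, adjusted p = 0.0234). The Insig1 call was lost without Ikbkb-deleted replicates 1 or 2 or Irf1-deleted replicates 2 or 3 (log2 -1.27 to -1.03, adjusted p 0.0567 to 0.0818). Msmo1, an enzyme of sterol synthesis, ranged over 202 to 264 CPM in the Ikbkb-deleted and 52 to 162 CPM in the Irf1-deleted libraries (edgeR log2 fold change -1.22 ± 0.33 SE, adjusted p = 0.0363). The Msmo1 call was lost without Ikbkb-deleted replicates 1, 2 or 3 or Irf1-deleted replicates 2 or 3 or the library labelled Irf1-deleted replicate 1 (log2 -1.30 to -1.0, adjusted p 0.0565 to 0.132). Of 34 cell cycle genes 2 were higher and 3 lower (median -0.12), and of these calls 0 remained in either direction without replicate 2 of either group, Irf1-deleted replicate 3 or the library labelled Irf1-deleted replicate 1. Of 25 genes of glycolysis and hypoxia 1 was called, Hk1, the first enzyme of glycolysis, which read 53.7, 69.3, 64.4 and 43.6 CPM in the Ikbkb-deleted and 159.8, 153, 184 and 136 CPM in the Irf1-deleted libraries (edgeR log2 fold change 1.45 ± 0.31 SE, adjusted p = 0.0150). The Hk1 call was lost without Irf1-deleted replicate 3 (log2 1.37, adjusted p = 0.0626). None of 8 mitochondrially encoded genes was called.

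Markers of other cells of a tumour were read in the same libraries. Their calls stand beside shares of 5.04% higher and 3.54% lower over all genes tested. T and NK cell markers summed to 508, 779, 399.6 and 362 CPM in the Ikbkb-deleted and 356, 143, 177 and 123 CPM in the Irf1-deleted libraries, which did not overlap. Of 22 such markers 21 had a negative log2 fold change and 0 were called. Nkg7, a granule protein of killer cells, read 42.3, 111, 49.4 and 50.9 CPM in the Ikbkb-deleted and 40.3, 7.13, 9.78 and 2.46 CPM in the Irf1-deleted libraries (edgeR log2 fold change -2.09 ± 1.05 SE, adjusted p = 0.228). Macrophage and monocyte markers summed to 4145 to 14538 CPM in the Ikbkb-deleted and 6293 to 12064 CPM in the Irf1-deleted libraries, and of 20 only the proteoglycan gene Vcan, also in the matrix list, was called. None of 11 cDC2, 9 B cell and 8 melanocyte lineage markers was called, and of 10 neutrophil markers only Mmp9 was. Endothelial markers summed to 57.1 to 116 CPM in the Ikbkb-deleted and 102 to 248 CPM in the Irf1-deleted libraries, and 2 of 12 were called higher. Pecam1, the endothelial adhesion molecule CD31, read 5.83, 12.7, 6.05 and 12.8 CPM in the Ikbkb-deleted and 26.2, 56.4, 22.9 and 38.4 CPM in the Irf1-deleted libraries, without overlap (edgeR log2 fold change 1.95 ± 0.47 SE, adjusted p = 0.0229). The Pecam1 call was lost without Ikbkb-deleted replicates 1 or 3 or Irf1-deleted replicates 2 or 3 (log2 1.64 to 2.11, adjusted p 0.0534 to 0.0738). Tek, the angiopoietin receptor and the other called marker, read 0.0525, 0, 0 and 0 CPM in the Ikbkb-deleted and 10.1, 1.47, 1.58 and 3.67 CPM in the Irf1-deleted libraries, and no fold is given against libraries at 0. The part of T cells, NK cells and vessels in the other differences was not tested.

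Muscle and skin genes also separated libraries. Acta1, the actin of skeletal muscle (ENSMUSG00000031972, mm10 chromosome 8, 123891769 to 123894751, minus strand), read 124, 51.9, 34.5 and 63.4 CPM in the Ikbkb-deleted and 1.24, 2.69, 4.3 and 0.767 CPM in the Irf1-deleted libraries, 30.5 times lower without overlap (edgeR log2 fold change -4.93 ± 0.92 SE, adjusted p = 0.0112), and the call held without each of the 8 libraries in turn. Actin genes have near-identical coding sequences, so the split of reads among them is uncertain. Of 10 muscle markers 2 were lower and 0 higher, and 1 was lower without any 1 of the 8 libraries. The other called marker was Myl1, a fast muscle myosin light chain, which read 7.51, 1.81, 1.86 and 2.94 CPM in the Ikbkb-deleted and 0.137, 0, 0.198 and 0.283 CPM in the Irf1-deleted libraries. The Myl1 call was lost without each of the 8 libraries (adjusted p 0.0517 to 0.118). Between the controls 6 of the 10 were lower and 0 higher. Krt5 and Krt14, paired keratins of basal epidermis, were called higher on the strength of few libraries. Krt14 read 0.788, 0, 0.0531 and 0.149 CPM in the Ikbkb-deleted and 46.6, 1.71, 572 and 0.121 CPM in the Irf1-deleted libraries, and Krt5 read 0, 0, 0 and 0.0997 CPM in the Ikbkb-deleted and 19.6, 1.15, 160.3 and 0.0404 CPM in the Irf1-deleted libraries, so that replicate 3 of the Irf1-deleted group carried most of both and the groups overlapped. Neither was called without Ikbkb-deleted replicates 2 or 3 or Irf1-deleted replicate 3, and keratin genes share sequence, so their counts are uncertain. The part of muscle and skin in the other differences was not tested.

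The same contrast between the floxed controls shares no library with the deleted groups. Of 16040 genes 2018 (12.6%) were called between the Irf1 controls and the Ikbkb controls, 1081 higher (6.74%) and 937 lower (5.84%). The 960 genes called in both comparisons make up 69.8% of the calls between the deleted groups and 47.6% of those between the controls, and all 960 had the same direction, 507 higher and 453 lower. Genes called higher between the deleted groups had a median log2 fold change of 1.11 in the controls and those called lower one of -0.84, beside -0.01 over all genes tested. Across the 16040 genes, which are not independent replicates, the log2 fold changes of both comparisons had a Pearson r of 0.46 and a Spearman rho of 0.64. The control groups did not overlap for 1654 higher (10.3%) and 1148 lower (7.16%) genes. The first principal component of log2 CPM, with 22.8% of the variance, placed all 8 Irf1-set libraries on 1 side and all 8 Ikbkb-set libraries on the other.

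Leading genes of the deleted groups had like values in the controls. Postn read 638, 679, 381 and 658 CPM in the Ikbkb controls and 3388, 1952, 3974 and 1384 CPM in the Irf1 controls (edgeR log2 fold change 2.18 ± 0.38 SE, adjusted p = 0.00614). Nr4a1 read 209, 305, 1133 and 312 CPM in the Ikbkb controls and 27.5, 30.2, 41.1 and 104 CPM in the Irf1 controls (edgeR log2 fold change -3.27 ± 0.63 SE, adjusted p = 0.00779). Nfkbia read 775, 814, 1337 and 566 CPM in the Ikbkb controls and 209.8, 239, 263 and 340.0 CPM in the Irf1 controls (edgeR log2 fold change -1.73 ± 0.24 SE, adjusted p = 0.00391). In each of these 3 genes the Irf1 controls did not overlap the Ikbkb controls, although neither gene was deleted there. Sparcl1, Col15a1, Acta1, Cxcl1 and Cd83 were called in the controls too, with log2 fold changes of 2.87, 2.81, -6.30, -2.85 and -3.04 (edgeR adjusted p = 0.00586, 0.00391, 0.00505, 0.0103 and 0.0228). The largest control increases by the rule for named genes were Tnc (edgeR log2 fold change 3.98 ± 0.95 SE, adjusted p = 0.0163), the arginase gene Arg1 (edgeR log2 fold change 3.52 ± 0.97 SE, adjusted p = 0.0295), the atypical cadherin gene Fat1 (edgeR log2 fold change 3.31 ± 0.72 SE, adjusted p = 0.0113), the collagen cross-linking enzyme Lox (edgeR log2 fold change 3.15 ± 0.80 SE, adjusted p = 0.0217) and C1qtnf3, a secreted relative of complement C1q (edgeR log2 fold change 3.03 ± 0.73 SE, adjusted p = 0.0172). Of these, C1qtnf3 was the one called between the deleted groups, where it read 0.0525, 0.907, 1.54 and 0.997 CPM in the Ikbkb-deleted and 8.01, 31, 18.2 and 7.96 CPM in the Irf1-deleted libraries (edgeR log2 fold change 4.21 ± 0.79 SE, adjusted p = 0.0112). Mreg, a melanosome transport gene, was among the largest control decreases (edgeR log2 fold change -3.23 ± 0.86 SE, adjusted p = 0.0253) and was not called between the deleted groups (edgeR log2 fold change -2.76 ± 0.84 SE, adjusted p = 0.0542). Kdm4b, Fyco1, H19 and Mcpt2, a mast cell protease gene of a family of near-identical members, were called between the deleted groups and not between the controls. Their log2 fold changes in the controls were 0.15, 1.03, 1.38 and 0.84 (edgeR adjusted p = 0.793, 0.140, 0.119 and 0.314).

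**Figure D5:**
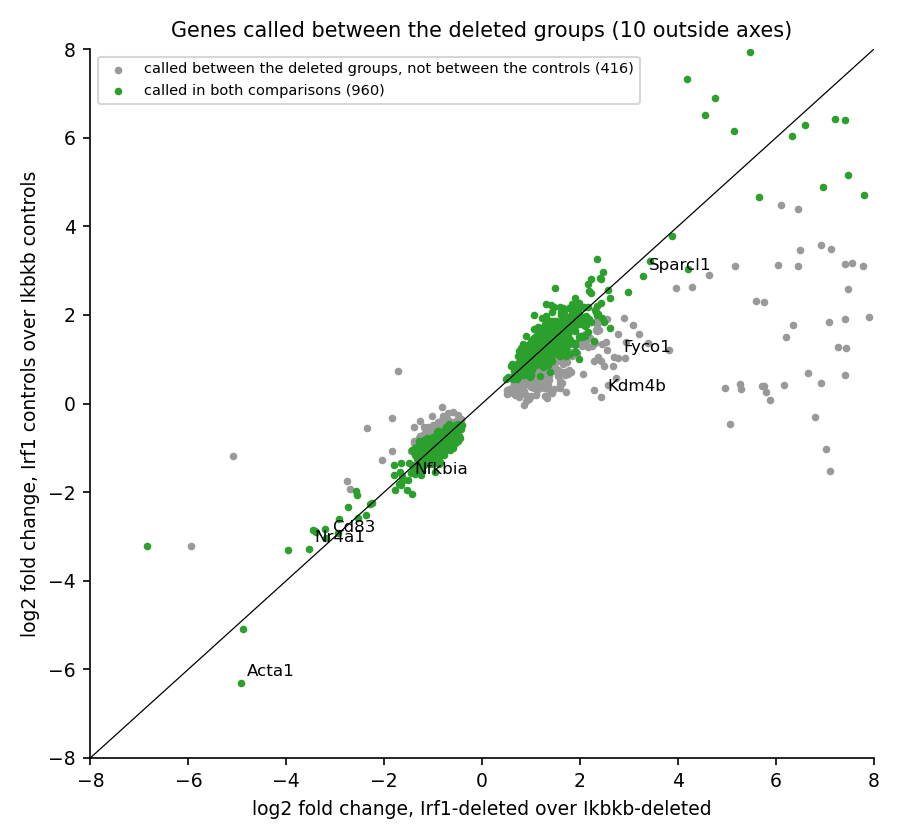
Each point is 1 of the genes called between the deleted groups, with its log2 fold change there on the x axis and the same contrast between the floxed controls on the y axis, and the line marks equal values. Green points (960) were called in both comparisons and grey points (416) were not called between the controls, Kdm4b lies near 0 on the y axis, and 10 genes lie outside the axes.

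Whether the deletions themselves differed was tested by the difference of both deletion effects: Irf1-deleted minus Irf1 controls, less Ikbkb-deleted minus Ikbkb controls. It takes out any difference of the sets that deleted and control libraries share, and it uses the same libraries as both comparisons above. edgeR called 0 of 16040 genes (0%, smallest adjusted p 1.00), and 455 (2.84%) had an unadjusted p under 0.05. DESeq2 called 12 genes and limma voom 0, and no list had a member called by edgeR. Among the DESeq2 calls Hif3a, Trp63, Plekha6, Lepr and Gdf6 had log2 differences of 19.9 to 23.1, with 8 to 11 of 16 libraries at 0. Only Kdm4b, Khdc4 and Tbc1d32 among these calls had no library at 0. Among genes whose mean log2 CPM reached 3, Kdm4b ranked first by p, with a log2 difference of 2.27 ± 0.44 SE. It read 20, 26.9, 39.3 and 36 CPM in the Ikbkb controls, above all 4 Ikbkb-deleted libraries (9.04 to 11.7 CPM). In the Irf1 controls it read 28.1, 24.4, 59.4 and 23.8 CPM, which overlapped the Irf1-deleted libraries (36.1 to 64.8 CPM). DESeq2 called Kdm4b (log2 difference 2.29, adjusted p = 0.00203), and edgeR did so without Irf1 control replicate 3 (log2 difference 2.69, adjusted p = 0.0454). Next on the higher side of these were Car13, a cytosolic carbonic anhydrase, at 1.02 ± 0.27 SE and Scamp5, a secretory carrier membrane protein, at 1.75 ± 0.54 SE. First on the lower side were Khdc4, an RNA-binding protein gene, at -1.18 ± 0.27 SE, Dcun1d2, a gene of cullin neddylation, at -1.16 ± 0.33 SE and Zyg11b, a ubiquitin ligase adaptor, at -0.99 ± 0.29 SE. Of the less expressed keratinocyte markers, 5 of 12 had an unadjusted p under 0.05 (list median 3.35), and their summed CPM was 110.0, 30.9, 950.3 and 27.4 in the Irf1-deleted libraries, highest in replicate 3. None of the 6 named genes passed in edgeR over all libraries, and DESeq2 also called Khdc4 (log2 difference -1.17, adjusted p = 0.0139). For the leading genes of the deleted groups the log2 difference was -0.02 ± 0.52 SE for Postn, -0.27 ± 0.82 SE for Nr4a1, 0.21 ± 0.33 SE for Nfkbia and 0.39 ± 0.57 SE for Irf1. A p that misses the threshold does not show that the deletions acted alike, and at these errors moderate differences were not detectable.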

How the data were processed

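The authors deposited raw read counts per gene for 16 libraries. Per the submitters' processing notes, the tools named were HTSeq 0.6.1p1, STAR 2.5.3a, cutadapt 1.10 and bcl2fastq 2.17.1.14, with build mm10. The strand setting and annotation release are not given in the sources used here, so reads of overlapping and antisense genes cannot be told apart. Per the labels' protocols, RNA of sorted cells was amplified by PCR with SMART-Seq v4, a kit that adds no molecular identifiers, so reads are not independent molecules.

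Libraries were grouped by genotype label, 4 per group. Replicate numbers follow accession order and pair nothing. Of 32697 genes 32684 matched a symbol and position in GENCODE M21 and 13 did not. In R 4.3.3, edgeR 4.0.16 with TMM factors fitted 16 libraries with a mean per group (glmQLFit and glmQLFTest) over the 16040 genes kept by filterByExpr (minimum count 10, minimum total 15), and p-values were Benjamini-Hochberg adjusted over those genes. Calls had an adjusted p under 0.05. The contrasts tested were deleted groups, control groups and the difference of deletion effects. The test was run on simulated data with the same spread for all genes and no outlying library, a simpler setting than these libraries. It recovered 38 of 100 genes changed 2-fold and 99 of 100 changed 4-fold, and 11 of its 148 calls were false. These rates do not carry over to the libraries themselves. Between the deleted groups Tnc and Mreg, at log2 fold changes of 2.78 and -2.76, were not called (edgeR adjusted p = 0.0664 and 0.0542). DESeq2 1.42.0 and limma 3.58.1 (voom) served as alternatives, beside other scalings, filters, covariates and leaving out each library.

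Named genes were Irf1 and Ikbkb, per contrast and direction the called genes of largest fold change (12 between the deleted groups, 5 otherwise) with mean log2 CPM of at least 3 (prior count 2) and no overlap of groups, without predicted genes and pseudogenes, and up to 4 called members of each of 31 gene lists. Where a contrast had no call in a direction, the 3 genes of smallest p were given. The groups compared, the lists and the rule were chosen with earlier results of these data known. Promoter windows are from RefSeq, build GRCm38.p6.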

Additional observations from a re-analysis of the deposited data

Results flagged for a closer look

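Of 156 groups of 4 libraries (78 genes in both deleted groups), 17 had a highest or lowest library whose gap to the next, over the range of the group, was above Dixon's 95% critical value for 4 samples. Chance alone sets apart about 1 in 20 groups of independent normal values. CPM were not transformed and the genes share libraries, so that rate cannot say how many of the 17 are due to chance.

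Ikbkb-deleted replicate 1 stood apart high for the cDC1 markers Xcr1 (318 CPM) and Clec9a (50.6 CPM), for Il1b (1176 CPM) and for Tek (0.0525 CPM, with the other replicates at 0). The library labelled Irf1-deleted replicate 1 stood apart high for Xcr1 (196 CPM). Ikbkb-deleted replicate 2 stood apart high for Nkg7 (111 CPM), B2m (3359 CPM) and Kdm4b (11.7 CPM). Ikbkb-deleted replicate 4 stood apart high for Col3a1 (2955 CPM), Ltbp2 (38.7 CPM), Nkd2 (30.4 CPM) and Krt5 (0.0997 CPM, with the other replicates at 0). Irf1-deleted replicate 2 was high for Egr2 (8.35 CPM). Irf1-deleted replicate 3 was high for Krt5 (160.3 CPM) and Krt14 (572 CPM). Irf1-deleted replicate 4 was high for Cdk1 (359.6 CPM) and low for Lama5 (38.4 CPM).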

How the results depend on the processing

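The number of genes called between the deleted groups, 1376, was 0 with a fibroblast marker covariate (1296 at an unadjusted p under 0.05), 2132 with a cDC1 marker covariate, 718 without a filter on low counts, 2490 by DESeq2, 2990 by limma voom with quality weights and 4 with a required change of 1.5-fold (Bmp1, Kdm4b, Zfp362 and Sparcl1). It ranged from 110 without Irf1-deleted replicate 3 to 1573 without Irf1-deleted replicate 4. The 2018 calls between the controls became 0 with the fibroblast covariate (1660 at an unadjusted p under 0.05), 1199 without a filter, 3171 by DESeq2, 4130 by voom, 33 with a required change and 1069 from those 8 libraries alone, and ranged from 782 to 2404 with 1 library left out. The difference of deletion effects had 0 calls, 12 by DESeq2, and 0 to 1 with 1 library left out. The cause was not tested. The share of higher calls was 58.7%, against 69.1% without a filter, 46.3% with a T and NK cell covariate and 46.2% with a stress and immediate-early covariate, which was chosen after seeing the data. Leaving out a library moved it to between 57.7% and 73.6%.

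Of 1355 alternatives over 68 called genes, 907 kept the direction and the call, 447 kept the direction only and 1 reversed: Fn1 was -0.0793 with the fibroblast covariate. Uncalled genes changed sign as follows, on the log2 scale. With the fibroblast covariate Irf8 was 0.95, B2m 0.0785, Cd74 1.47, Nkg7 0.65, Clec9a 1.24 and Xcr1 2.38. With the cDC1 covariate Xcr1 was 0.11, and with the T and NK cell covariate B2m was 0.23, Cd74 0.24 and Xcr1 0.0178. With the stress covariate Irf1 was 0.14, Irf8 1.01, B2m 0.39, Cd74 1.13, Clec9a 1.1403 and Xcr1 1.06. With 1 library left out, B2m ranged from -0.39 to 0.0932, Cd74 from -1.09 to 0.0126 and Xcr1 from -1.91 to 0.57. Voom and the stress covariate moved the median of all genes to 0.08 and 0.13. No paired analysis was possible because replicate numbers follow accession order and mark no shared animal, batch or day.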

Other observations

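Of 10 mast cell genes, listed after their values were seen, 4 were called higher and 0 lower in the Irf1-deleted libraries. Over all genes tested 5.04% were called higher and 3.54% lower. Mcpt2 was already named for the size of its fold change, so the count is no independent result. Mcpt2, Mcpt4, Tpsb2 and Cma1, which encode granule proteases of mast cells, were the called ones, with log2 fold changes of 2.49, 2.70, 2.43 and 2.29 (edgeR adjusted p = 0.0166, 0.0328, 0.0418 and 0.0457). The Mcpt2 call was lost without Irf1-deleted replicate 3 (log2 2.53, adjusted p = 0.0576). Tpsab1, Cpa3, Fcer1a, Hdc, Kit and Ms4a2 were not. Mcpt2 read 5.41, 28.5, 8.6 and 25 CPM in the Ikbkb-deleted and 36.9, 133, 88.1 and 122 CPM in the Irf1-deleted libraries. The calls of Mcpt4, Tpsb2 and Cma1 were not examined with a library left out. The sum over the 10 genes was 159, 88, 94.4 and 156 CPM in the Ikbkb-deleted and 196.6, 529.5, 389 and 424.5 CPM in the Irf1-deleted libraries, without overlap. Kit, also a melanocyte lineage marker, gave 143 of the 159 CPM in Ikbkb-deleted replicate 1. In that library Mcpt4 read 0.42, Cma1 1.47 and Cpa3 0.158 CPM, so the sum there is mostly Kit. It was 80.5 to 169 CPM in the Ikbkb controls and 115 to 311 CPM in the Irf1 controls, with overlap. Between the controls the log2 fold changes of the 4 called genes were 0.84, 1.06, 0.96 and 0.30, and none was called. Mast cell proteases form a family of near-identical members, so the split of reads among them is uncertain.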
